A study of Mus musculus with 6 samples.

Results

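The 10 genes described here mark the fibroblasts and telocytes around the intestinal epithelium, and were compared between the adenomas of Apc1322T and ApcMin mice, which model familial adenomatous polyposis. They were Pdgfra, Pdgfrb, Foxl1, Foxf1, Gli1, Cd34, Cd81, Pdpn, Ackr4 and Dcn, taken by symbol from the 34866 genes of the count table, and all 10 were found. The libraries came from excised intestinal adenomas of C57BL/6J mice aged between 100 and 120 days. Of the 6 libraries, 3 were from Apc1322T/+ and 3 from ApcMin/+ mice. Both groups thus carry 1 mutant germline allele of Apc and the labels name no other engineered allele, and normal intestine was not part of the comparison. The ApcMin allele encodes a short Apc truncation and the Apc1322T allele a longer one that still binds β-catenin. RNA from several extractions of a single mouse was typically pooled into a library, so a library does not stand for a single adenoma. Whole adenomas were homogenised, so that epithelium, stroma, vessels and blood cells are measured together.

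As background, the connective tissue below the intestinal epithelium supports the stem cells of the crypt and the differentiation of cells on the villus. Telocytes are large subepithelial cells that carry high levels of Pdgfra and Foxl1 and secrete BMP and non-canonical Wnt ligands. Trophocytes are CD81+ fibroblasts with lower Pdgfra, found beneath the crypt, that secrete the BMP antagonist Gremlin and R-spondin. Epithelial cells signal to this tissue by PDGF and Hedgehog ligands, and Gli1, Foxf1 and Foxl1 are known to respond to Hedgehog signals there.

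The libraries held between 23132461 and 33518324 estimated counts. In them 3 counts, the smallest signal considered here, corresponded to at most 0.130 CPM (counts scaled to a common library total, counting error only). Summed levels and levels per length are on this scale, whereas log2 CPM and fold changes also use a normalisation between libraries. The fewest counts were those of Apc1322T replicate 2 and the most those of ApcMin replicate 1. The same libraries lay at the ends of a list of other fibroblast genes, such as collagens and Vim. Averaged over the 13 tested genes of that list, the log2 CPM was 3.67 in Apc1322T replicate 2 and 5.89 in ApcMin replicate 1, and between 3.95 and 4.62 in the other 4 libraries. Values of the niche genes are therefore given with and without these libraries where they matter. The epithelial marker Epcam had a log2 CPM between 11.36 and 11.41 in the Apc1322T and between 10.81 and 11.12 in the ApcMin libraries, without overlap (log2 fold change -0.39, SE 0.12). Krt14, a keratin of stratified epithelium, had a log2 CPM of between 1.69 and 2.26 in the Apc1322T and between 4.41 and 4.47 in the ApcMin libraries.

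The promoter sequences of 5 of the 10 genes (Ackr4, Cd34, Cd81, Pdgfra and Pdpn) were found in the RefSeq table for GRCm38.p6. Those of Pdgfra, Pdpn and Cd81 are shown as the 250 bases before the start site, 5′ to 3′ on the strand of the gene. They stand for the member with the clearest difference, a member led by a single library, and the member whose levels differed least. Capitals mark a forkhead motif (TGTTTAC) in Pdpn and GC boxes (GGGCGG) in Cd81, each searched on both strands.

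Pdgfra: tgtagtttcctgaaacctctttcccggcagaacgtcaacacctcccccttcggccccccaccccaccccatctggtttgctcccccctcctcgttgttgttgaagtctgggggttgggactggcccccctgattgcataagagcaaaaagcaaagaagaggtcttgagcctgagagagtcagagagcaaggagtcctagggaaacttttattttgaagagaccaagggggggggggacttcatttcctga

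Pdpn: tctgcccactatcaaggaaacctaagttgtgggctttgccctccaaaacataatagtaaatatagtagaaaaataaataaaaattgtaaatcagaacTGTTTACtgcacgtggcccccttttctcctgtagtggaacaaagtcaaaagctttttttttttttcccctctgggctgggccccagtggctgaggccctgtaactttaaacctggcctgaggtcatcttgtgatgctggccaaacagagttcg

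Cd81: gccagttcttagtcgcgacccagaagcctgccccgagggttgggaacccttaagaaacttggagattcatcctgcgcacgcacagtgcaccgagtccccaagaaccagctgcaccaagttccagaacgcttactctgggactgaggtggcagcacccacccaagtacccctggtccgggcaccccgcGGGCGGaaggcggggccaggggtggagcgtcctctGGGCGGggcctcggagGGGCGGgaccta

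These stretches lie at chr5:75152001-75152250 (plus strand), chr4:143299565-143299814 (minus strand) and chr7:143052500-143052749 (plus strand). The forkhead motif of Pdpn spans positions -153 to -147 before the start site. Of all 32851 promoters of the same length in the table, 3.17% hold this motif and 32.7% hold a GC box. Cd81 has 3 GC boxes, at -63, -28 and -12, and a GC content of 65.6%, against 54.4% in Pdgfra and 43.2% in Pdpn (median of all promoters 52.4%). The motif of the Gli factors (GACCACCCA) was in 0.225% of all promoters and in none of the 5. The letters of a motif describe these windows only and show no binding.

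All 10 niche genes passed the filter on low counts, and 9 of them had a positive log2 fold change, that is, a higher mean in ApcMin than in Apc1322T adenomas. Of all 16536 genes tested, 52.4% had a positive log2 fold change, and this share applies to the sign counts of every list below. The genes of the lists were measured in the same 6 libraries, so their signs are not separate results. In edgeR's quasi-likelihood test no niche gene had an adjusted p under 0.01 or 0.05 (smallest 0.257), where 0% and 0.00605% of the 16536 genes were called. At an unadjusted p under 0.05 there were 3 niche genes (Pdgfra, Foxf1 and Gli1), or 30% of the list, where 15.1% of all genes were called in either direction and 7.49% on the ApcMin side. In the same 3 genes every ApcMin library lay above every Apc1322T library, which held for 11.0% of all genes in this direction and for 21.0% in either. The median log2 fold change of the 10 genes was 0.68, and that of all genes tested 0.0167. With DESeq2's Wald test, which the study had used, 1 of the 10 genes was called, Pdgfra, at an adjusted p under 0.01, and 1.11% of the 17503 genes with an adjusted p. It also had 5 niche genes at an unadjusted p under 0.05, where it had 11.5% of 25171 genes in either direction. In bulk tissue, fewer cells of a type and less RNA per cell cannot be told apart. The edgeR count of 3 was 1 without Apc1322T replicate 3 (8.63% of all genes) and 1 without ApcMin replicate 3 (9.87% of all genes). The median of 0.68 was 0.44 without Apc1322T replicate 2.

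**Figure D1:**
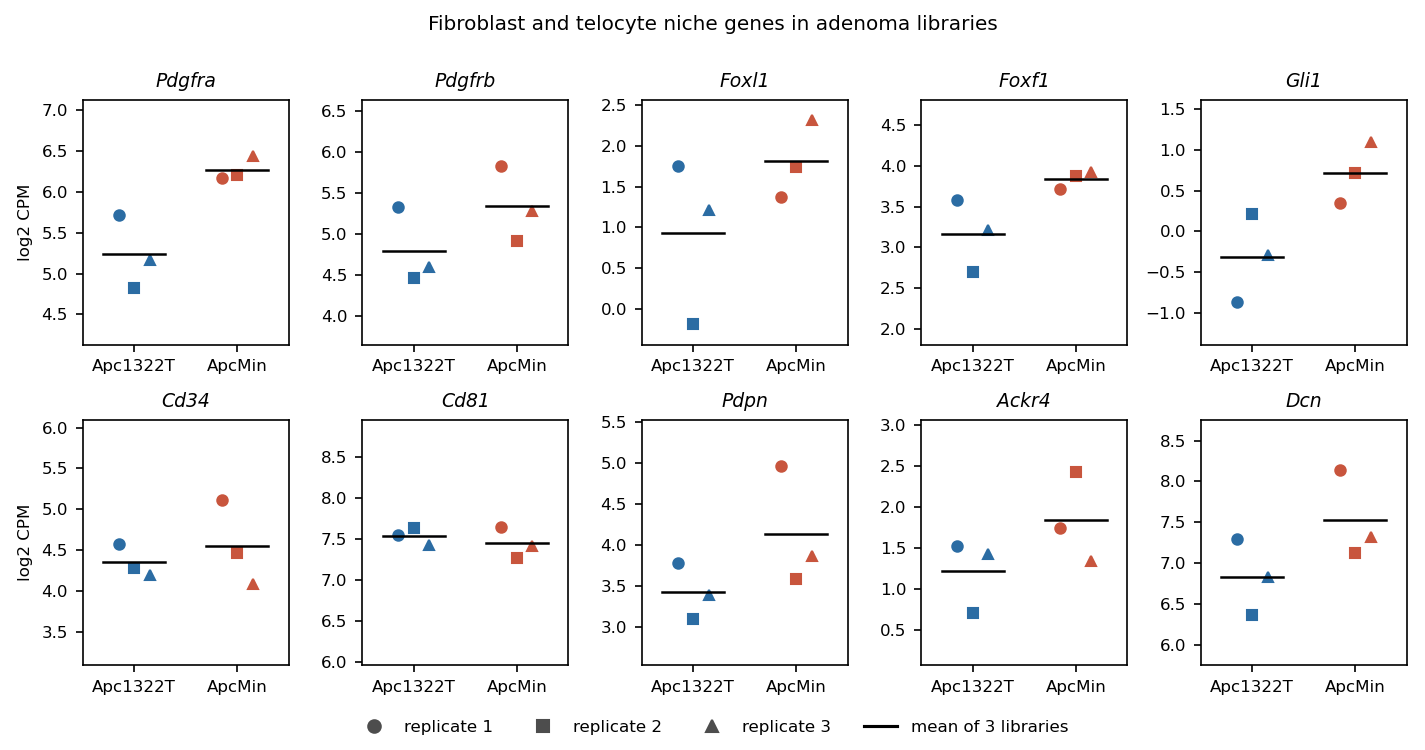
Log2 CPM (vertical axes, TMM-normalised, prior count 2) of the 10 niche genes in the 3 Apc1322T and 3 ApcMin libraries (horizontal axes), with a marker per replicate number and a line at the mean of 3 libraries. The groups are separate for Pdgfra, Foxf1 and Gli1, and ApcMin replicate 1 is the highest library for Pdgfrb, Cd34, Cd81, Pdpn and Dcn.

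The receptors for PDGF come first among the niche genes. Pdgfra encodes the receptor for PDGF-A and marks most fibroblasts of the gut wall. On chromosome 5 (GRCm38) it spans 75152292 to 75198215. Its estimated counts were 1430, 592 and 817 in Apc1322T replicates 1, 2 and 3 and 2569, 1883 and 2747 in ApcMin replicates 1, 2 and 3. On the normalised scale this gave a log2 CPM of 5.72, 4.82 and 5.16 in Apc1322T and of 6.17, 6.21 and 6.44 in ApcMin adenomas. All ApcMin libraries lay above all Apc1322T libraries, and the ApcMin libraries lay closer together (SD 0.15 against 0.45, n = 3 each). The log2 fold change was 1.00 (standard error, SE, 0.23, edgeR adjusted p = 0.257). With each library left out in turn it ranged from 0.81 to 1.28 and its adjusted p from 0.0429 to 0.692. In DESeq2's Wald test the log2 fold change was 0.98 (adjusted p = 0.00656). An exact permutation of the 6 libraries gave p = 0.10 (two-sided), below which 3 libraries against 3 cannot go.

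Pdgfrb encodes the receptor for PDGF-B, and is found on pericytes as well as fibroblasts. On chromosome 18 it spans 61045150 to 61085061. Log2 CPM values were 5.33, 4.46 and 4.60 in Apc1322T and 5.83, 4.91 and 5.28 in ApcMin replicates 1, 2 and 3. The groups overlapped, since Apc1322T replicate 1 lay above ApcMin replicates 2 and 3. Their log2 fold change was 0.54 (SE 0.32, edgeR adjusted p = 0.434), and was 0.26 without ApcMin replicate 1 and 0.87 without Apc1322T replicate 1. Of 7 pericyte markers 6 were tested, and all 6 had a positive log2 fold change (median 0.41, and 0.63 without Apc1322T replicate 1). Their summed level was between 96.7 and 164 CPM in the Apc1322T and between 153 and 189 CPM in the ApcMin libraries, and their part in the Pdgfrb values was not tested.

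Foxf1 and Foxl1, which encode forkhead transcription factors of the gut mesenchyme, are neighbours on chromosome 8. Foxf1 spans 121084386 to 121088144 and Foxl1 spans 121127940 to 121130644, with 39796 base pairs between them. Foxf1 had 323, 135 and 209 counts in the Apc1322T and 470, 369 and 478 counts in the ApcMin libraries. Its log2 CPM was 3.58, 2.70 and 3.21 in Apc1322T and 3.72, 3.87 and 3.92 in ApcMin adenomas, without overlap. The gap between the groups was small, since the highest Apc1322T library lay at 3.58 and the lowest ApcMin library at 3.72. The log2 fold change of Foxf1 was 0.64 (SE 0.23, edgeR adjusted p = 0.307), with a range from 0.44 to 0.88 when single libraries were left out.

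Foxl1, the gene by which subepithelial telocytes are commonly recognised, had few counts, with 90, 17 and 51 in the Apc1322T and 90, 83 and 155 in the ApcMin libraries. Its log2 CPM was 1.75, -0.18 and 1.21 in Apc1322T and 1.37, 1.74 and 2.31 in ApcMin adenomas. Apc1322T replicate 2 lay far below the other 5 libraries, and the groups overlapped. The log2 fold change of 0.74 (SE 0.52, edgeR adjusted p = 0.50) was 0.36 without that library and was 1.22 without Apc1322T replicate 1. Between these genes lie Mthfsd and Foxc2, a forkhead gene of vessels and lymphatics. Mthfsd had a log2 fold change of 0.12 (SE 0.12) and Foxc2 of -0.56 (SE 0.49). Foxc2 had only between 10 and 47 counts, with the most in Apc1322T replicate 1, and its groups overlapped, so its direction is uncertain. The annotation also holds a long read-through gene, Gm20388, that covers Foxf1 and Foxl1 on the same strand, and how Salmon divided reads among them cannot be seen in the table.

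Gli1 encodes a transcription factor that is itself induced by Hedgehog signals, and lies on chromosome 10 from 127329882 to 127341974. It was the niche gene with the fewest counts, with 13, 23 and 17 in the Apc1322T and 43, 40 and 65 in the ApcMin libraries. The corresponding log2 CPM was -0.86, 0.22 and -0.29 in Apc1322T and 0.35, 0.72 and 1.09 in ApcMin adenomas. The groups did not overlap, but ApcMin replicate 1 and Apc1322T replicate 2 were close, at 0.35 and 0.22. The log2 fold change was 1.07 (SE 0.41, edgeR adjusted p = 0.314) and stayed between 0.81 and 1.40 with each library left out. Among the Apc1322T libraries, Gli1 was highest in replicate 2 and lowest in replicate 1, whereas replicate 1 was the highest library for 8 of the 10 genes. Arhgap9 overlaps the end of Gli1 on the opposite strand, and its log2 fold change was 0.03 (SE 0.29).

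**Figure D2:**
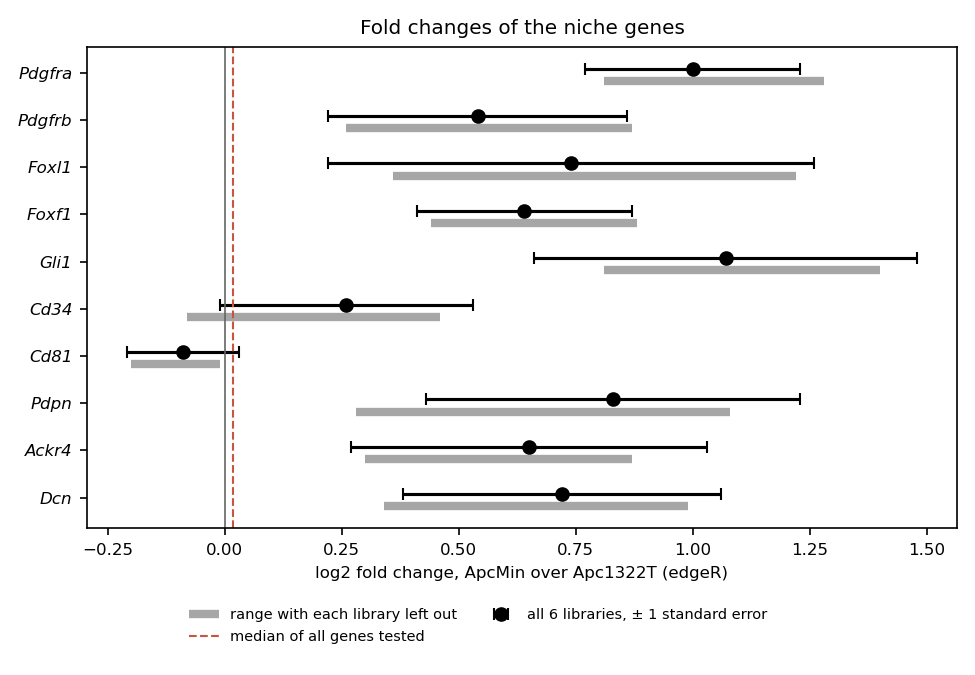
Log2 fold change of ApcMin over Apc1322T adenomas (horizontal axis) for the 10 niche genes (vertical axis), with points and bars for the edgeR estimate from 6 libraries ± 1 standard error, grey bands for the range with each library left out, and a dashed line at the median of all genes tested (0.0167). The bands of 8 genes lie above 0, that of Cd34 spans 0 (from -0.08 to 0.46), and that of Cd81 lies below it.

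The surface proteins differed among themselves. Pdpn encodes podoplanin, a glycoprotein of fibroblasts and lymphatic endothelium, and spans 143267431 to 143299564 on chromosome 4. Log2 CPM values were 3.78, 3.09 and 3.39 in Apc1322T and 4.97, 3.58 and 3.86 in ApcMin replicates 1, 2 and 3. ApcMin replicate 1 stood well above the rest, and ApcMin replicate 2 lay within the range of the Apc1322T libraries. A log2 fold change of 0.83 (SE 0.40, edgeR adjusted p = 0.371) was 0.28 without ApcMin replicate 1. The summed level of 6 lymphatic endothelium markers was between 134 and 191 CPM in Apc1322T and between 181 and 284 CPM in ApcMin libraries, of which the most counted, Prox1, is also made by enteroendocrine cells, and the part of lymphatic cells in the Pdpn values was not tested.

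Cd34 encodes a sialomucin of fibroblasts below the crypt and of vascular endothelium, and spans 194938819 to 194961279 on chromosome 1. Log2 CPM values were 4.57, 4.28 and 4.20 in Apc1322T and 5.11, 4.46 and 4.08 in ApcMin replicates 1, 2 and 3. The ApcMin libraries thus held both the highest and the lowest of the 6 values. A log2 fold change of 0.26 (SE 0.27, edgeR adjusted p = 0.649) was -0.08 without ApcMin replicate 1, so that its direction rests on that library. All 8 blood endothelium markers had a positive log2 fold change (median 0.28, but 0.01 without ApcMin replicate 1, 0.43 without Apc1322T replicate 1 and 0.45 without ApcMin replicate 2), with a summed level between 152 and 259 CPM in Apc1322T and between 239 and 339 CPM in ApcMin libraries.

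Cd81 encodes a tetraspanin that is present on many cell types, the epithelium included, and was used to define trophocytes. It lies on chromosome 7 from 143052739 to 143067934. With log2 CPM of 7.55, 7.63 and 7.43 in Apc1322T and 7.65, 7.27 and 7.42 in ApcMin adenomas, the ranges of the groups overlapped along most of their length. It had the only negative log2 fold change of the 10 genes, -0.09 (SE 0.12, edgeR adjusted p = 0.731), and the smallest one. Ackr4 encodes a scavenging receptor for chemokines that is found on fibroblasts of the submucosa. It lies on chromosome 9 from 104084157 to 104126933, inside Acad11 on the opposite strand. Its counts were 77, 33 and 60 in the Apc1322T and 118, 135 and 78 in the ApcMin libraries. Its log2 fold change was 0.65 (SE 0.38, edgeR adjusted p = 0.428), and ranged from 0.30 without ApcMin replicate 2, the highest library, to 0.87 without ApcMin replicate 3. Acad11 itself, with between 1320 and 2214 counts, had a log2 fold change of -0.60 (SE 0.23), in the opposite direction.

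Dcn encodes decorin, a small proteoglycan that binds collagen fibrils, and lies on chromosome 10 from 97479609 to 97518143. It had 4301, 1744 and 2590 counts in the Apc1322T and 10119, 3549 and 5049 counts in the ApcMin libraries. Its log2 CPM was 7.30, 6.37 and 6.83 in Apc1322T and 8.14, 7.13 and 7.32 in ApcMin adenomas. The groups overlapped, as Apc1322T replicate 1 lay above ApcMin replicate 2 and just below ApcMin replicate 3. For Dcn the log2 fold change was 0.72 (SE 0.34, edgeR adjusted p = 0.372), and 0.34 without ApcMin replicate 1. Its neighbour Lum, which encodes the related proteoglycan lumican 46985 base pairs away, had log2 CPM of 3.70, 2.65 and 3.34 in Apc1322T and 5.76, 3.96 and 4.14 in ApcMin adenomas, without overlap, and a log2 fold change of 1.57 (SE 0.56, edgeR adjusted p = 0.308).

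The niche genes were compared with each other by level per length, as CPM per kilobase of merged exons without TMM normalisation. This measure understates a gene whose annotation holds exons that are rarely used. Cd81 had the highest level, 61.2 ± 5.2 (SD, n = 3) in Apc1322T and 64.2 ± 9.2 (SD, n = 3) in ApcMin adenomas. Dcn followed at 19.3 ± 7.2 and 35.2 ± 14 (SD, n = 3 each), and its libraries stayed below those of Cd81 in both genotypes. Pdpn, Pdgfrb, Pdgfra and Foxf1 formed a middle group whose ranges overlapped in Apc1322T adenomas, with means of 5.69, 5.03, 3.70 and 3.61. In ApcMin adenomas the means of these 4 genes were 11.2, 8.10, 8.17 and 6.23, and those of Pdpn, Pdgfra and Pdgfrb overlapped. Here each library of Pdgfra (7.65 to 9.09) and of Pdpn (6.89 to 18.4) lay above each of Foxf1 (5.81 to 6.56). Cd34, at 2.66 ± 0.51 and 3.55 ± 1.4 (SD, n = 3 each), overlapped with Pdgfra and Foxf1 in Apc1322T adenomas and lay below both in every ApcMin library. Foxl1 (0.753 and 1.39), Ackr4 (0.414 and 0.724) and Gli1 (0.144 and 0.339) had the lowest means, in this order in both genotypes, the ranges of Foxl1 and Ackr4 overlapped, and Gli1 lay below every Foxl1 and Ackr4 library of the same genotype.

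Across libraries, the niche genes fell along different lines. ApcMin replicate 1 had the highest level of the 6 libraries for 5 genes (Pdgfrb, Cd34, Cd81, Pdpn and Dcn), ApcMin replicate 3 for 4 genes (Pdgfra, Foxl1, Foxf1 and Gli1) and ApcMin replicate 2 for 1 gene (Ackr4). At the other end, Apc1322T replicate 2 was the lowest of the 6 libraries for 7 of the 10 genes. Within the Apc1322T group, Gli1 and Cd81 were the genes for which replicate 1 was not the highest library. Without Apc1322T replicate 1, the number of niche genes whose groups did not overlap was 7 in place of 3, but 48.0% of all genes then did not overlap (23.9% on the ApcMin side). Without ApcMin replicate 2 it was 5, where 31.7% of all genes did not overlap (16.7% on the ApcMin side).

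The niche genes were also set against the mean log2 CPM of the other fibroblast genes in the same library. On this relative scale 2 of the 10 genes had a higher and 8 a lower mean in ApcMin than in Apc1322T adenomas, with a median difference of -0.24. The mean of the list was itself higher in ApcMin adenomas (difference 0.93). A gene with equal log2 CPM in both genotypes thus falls below 0 on this scale. The largest differences were those of Cd81 (-1.03) and Cd34 (-0.73), whose log2 CPM itself differed by -0.10 and 0.20. Together with Pdpn (-0.21) these genes had no overlap between the groups (exact permutation test, two-sided, p = 0.10 for each of these 3 genes, the smallest possible). The share of all genes without overlap on this scale was not computed. Pdpn followed the fibroblast list closely, with relative values of -0.55, -0.58 and -0.56 in Apc1322T and -0.92, -0.66 and -0.75 in ApcMin adenomas.

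Pdgfra had relative values of 1.39, 1.14 and 1.21 in Apc1322T adenomas, 1.97 and 1.82 in ApcMin replicates 2 and 3, and 0.28 in ApcMin replicate 1. Its relative difference was 0.11 with all libraries (exact permutation test, two-sided, p = 1.00) and 0.65 without ApcMin replicate 1. Gli1 likewise moved from 0.10 to 0.77, Foxl1 from -0.05 to 0.65 and Foxf1 from -0.25 to 0.29 when this library was left out. Ackr4 moved from -0.32 to 0.21, so that Foxl1, Foxf1 and Ackr4 changed direction on this scale. Foxl1 also changed direction without Apc1322T replicate 1 (0.19) or replicate 3 (0.11). Pdgfra was at -0.20 without ApcMin replicate 2 and -0.12 without ApcMin replicate 3. Gli1 was at -0.24 without either of these libraries and at -0.35 without Apc1322T replicate 1, so that neither gene had a direction that held with every library left out. The relative differences of Cd81 and Cd34 stayed below 0 without ApcMin replicate 1, at -0.64 and -0.52.

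Set against the mean of 8 smooth muscle markers, none of the 10 genes separated the groups, and the median difference was 0.08. Set against 7 gut epithelium markers, all 10 genes had a higher mean in ApcMin adenomas, with a median difference of 1.13 and no overlap for Pdgfra, Foxf1, Gli1 and Ackr4. The mean of these markers was itself lower in ApcMin adenomas (difference -0.45), which raises every gene on this scale. The share of all genes without overlap on it was not computed. The summed level of these epithelial markers was between 11700 and 13700 CPM in Apc1322T and between 9740 and 11900 CPM in ApcMin libraries.

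**Figure D3:**
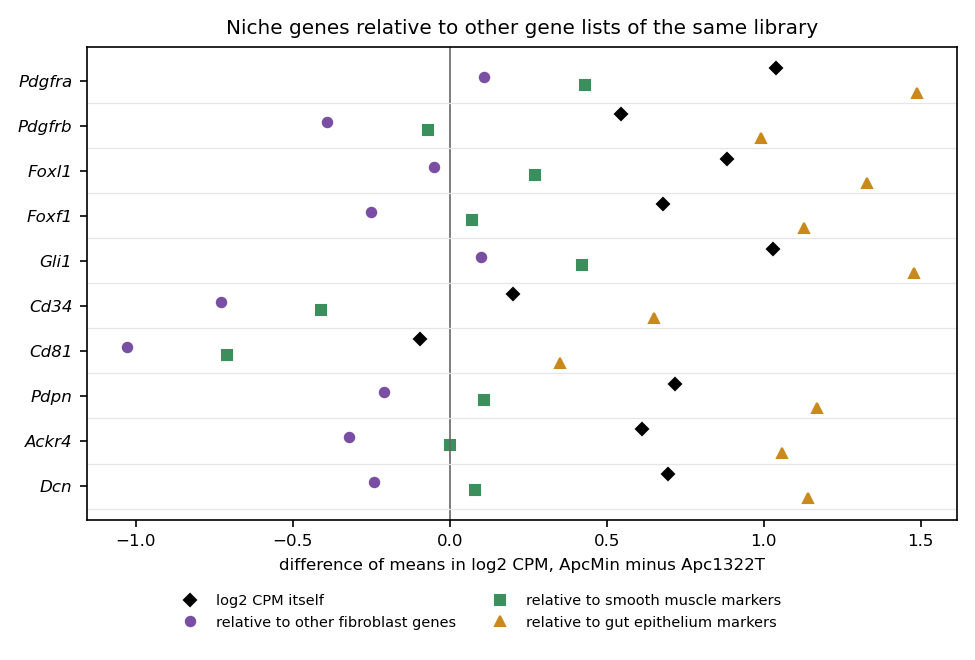
Difference of mean log2 CPM, ApcMin minus Apc1322T (horizontal axis), for the 10 niche genes (vertical axis), as measured and after the mean of the other fibroblast genes, of smooth muscle markers or of gut epithelium markers in the same library was subtracted, with n = 3 libraries per genotype. Points relative to epithelium lie to the right of the measured ones (median 1.13), and points relative to other fibroblast genes lie near or below 0 (median -0.24). The references themselves differed between the genotypes, by -0.45 for gut epithelium markers and by 0.93 for other fibroblast genes.

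Hedgehog signalling, by which the epithelium acts on these cells, was described with 13 further pathway genes, of which 12 were tested and Shh had too few counts (between 0 and 7 per library). Of the 12 genes, 11 had a positive log2 fold change (median 0.43), 5 reached an unadjusted p under 0.05 on the ApcMin side (7.49% of all genes) and 1 on the other (15.1% of all genes in either direction), and 0 passed the threshold in edgeR's test or in DESeq2's. The ligand Ihh, made by epithelial cells, had log2 CPM of 5.20, 5.59 and 5.64 in Apc1322T and 5.39, 6.13 and 6.38 in ApcMin replicates 1, 2 and 3. Only ApcMin replicate 1 overlapped the other group, and the log2 fold change was 0.53 (SE 0.26). The order of the ApcMin libraries for Ihh was that of Gli1, with replicate 3 highest and replicate 1 lowest. Among the Apc1322T libraries both genes were lowest in replicate 1, but Ihh was highest in replicate 3 and Gli1 in replicate 2. Ptch1, in contrast, was lowest of the ApcMin libraries in replicate 3.

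Ptch1 encodes a Hedgehog receptor that is itself induced by the signal. Ptch1 had log2 CPM of 4.81, 4.45 and 4.73 in Apc1322T and 4.95, 5.06 and 4.92 in ApcMin adenomas, and a log2 fold change of 0.31 (SE 0.12, edgeR adjusted p = 0.311). The groups did not overlap for Ptch1, and the same held for Smo (0.41, SE 0.16), which encodes the signal transducer, and for the co-receptors Gas1 (0.92, SE 0.27) and Cdon (0.44, SE 0.18). Hhip, which encodes a Hedgehog-binding inhibitor and is another known target, had log2 CPM of 1.25, 1.05 and 2.10 in Apc1322T and 0.81, 2.44 and 2.51 in ApcMin adenomas, and overlapped through ApcMin replicate 1. The ligand Dhh had the only negative value, -0.91 (SE 0.31), without overlap.

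**Figure D4:**
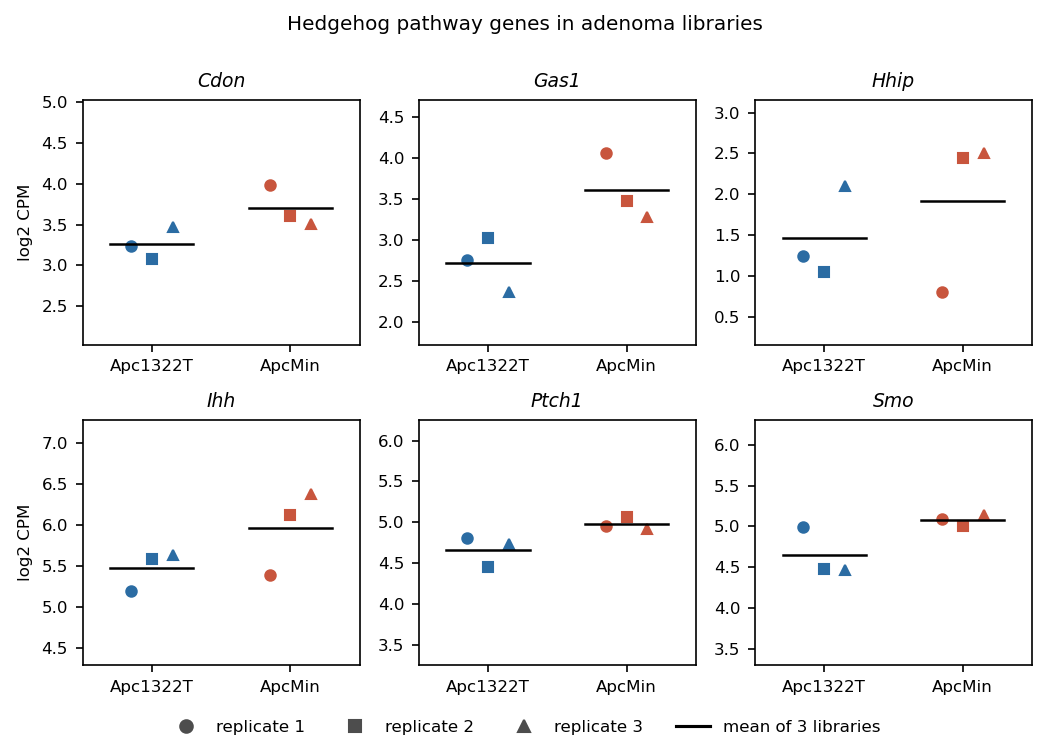
Log2 CPM (vertical axes) of 6 Hedgehog pathway genes in the 3 Apc1322T and 3 ApcMin libraries (horizontal axes), with a marker per replicate number and a line at the mean of 3 libraries. Ptch1, Smo, Gas1 and Cdon show no overlap between the genotypes, whereas Ihh and Hhip overlap through ApcMin replicate 1.

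The ligands of the PDGF receptors showed smaller values. Of 4 ligand genes, 3 had a positive log2 fold change (median 0.32) and none reached an unadjusted p under 0.05. The median was 0.57 without Apc1322T replicate 1, 0.04 without ApcMin replicate 3, 0.17 without Apc1322T replicate 3, and 0.20 without Apc1322T replicate 2 or ApcMin replicate 1. Pdgfa, which encodes the main ligand of the Pdgfra receptor in the gut, had log2 CPM of 5.75, 6.12 and 6.15 in Apc1322T and 6.03, 5.98 and 5.62 in ApcMin adenomas. Its log2 fold change was -0.13 (SE 0.15) and its groups overlapped, so its direction is uncertain. Pdgfb had the most positive log2 fold change of the ligands, at 0.52 (SE 0.35).

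Other genes of telocytes and trophocytes were compared in the same way. Of 10 further telocyte genes, 7 had a positive and 3 a negative log2 fold change (median 0.30). At an unadjusted p under 0.05 there was 1 gene on the ApcMin side (7.49% of all genes) and 2 on the other (1256 of the 16536 genes). The median was 0.11 without ApcMin replicate 2 and 0.16 without Apc1322T replicate 2. Bmp5, which encodes a BMP ligand, had the most positive value, 0.75 (SE 0.33), and Sox6, a transcription factor gene, the most negative, -0.80 (SE 0.20, edgeR adjusted p = 0.264). Of 11 trophocyte genes 8 were tested, and all 8 had a positive log2 fold change (median 0.97). The counts of Rspo1, Rspo2 and Wnt2 were too low to be tested. Grem1, which encodes Gremlin, had log2 CPM of 5.75, 4.48 and 5.59 in Apc1322T and 7.15, 6.19 and 5.35 in ApcMin adenomas, and the groups overlapped (log2 fold change 1.04, SE 0.53). Sfrp1, a secreted Wnt antagonist gene, had the most positive value, 1.45 (SE 0.53), without overlap, and Dkk3 the lowest, 0.15 (SE 0.25). The median of the trophocyte list was 0.40 without ApcMin replicate 1.

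Among the matrix genes, 4 of 6 tested small leucine-rich proteoglycans other than Dcn had a positive log2 fold change (median 0.71 for the 6). Fmod, the gene of fibromodulin, had the most positive value at 2.92 (SE 0.92), with 227 counts in ApcMin replicate 1 and between 3 and 34 in the other libraries, and Podn the most negative at -0.64 (SE 0.71). All 13 tested genes of the other fibroblast list had a positive log2 fold change (median 1.01), and 4 of them did not overlap (11.0% of all genes in this direction). Without ApcMin replicate 1 the median of this list, which is also the reference of the relative scale, was 0.30. Col3a1, a fibrillar collagen gene, had log2 CPM of 8.70, 7.27 and 7.90 in Apc1322T and 9.83, 8.15 and 8.77 in ApcMin adenomas, and so spread over more than its log2 fold change of 1.01 (SE 0.53). Mfap5, the gene with the most positive value (2.65, SE 1.13), had 581 counts in ApcMin replicate 1 and between 17 and 56 elsewhere. Vim had the lowest value of the list, 0.53 (SE 0.29). DESeq2's Wald test called 1 gene of this list, Dpt (dermatopontin), at an adjusted p of 0.00341, and 1.11% of all genes. In edgeR the log2 fold change of Dpt was 1.08 (SE 0.22, adjusted p = 0.257).

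Markers of other cell types moved with the niche genes to differing degrees. All 8 smooth muscle markers had a positive log2 fold change (median 0.61, and 0.39 without Apc1322T replicate 2, from 0.16 for Smtn to 0.88 for Myh11), with a summed level between 147 and 281 CPM in Apc1322T and between 329 and 479 CPM in ApcMin libraries. Among the pericyte markers the range was from 0.11 for Rgs5 to 0.74 for Abcc9, and among the blood endothelium markers from 0.15 for Kdr to 1.38 for Cdh5. DESeq2's Wald test called Cdh5 (adjusted p = 0.00676) and 1.11% of all genes, whereas edgeR's test did not call it (adjusted p = 0.279). All 6 lymphatic endothelium markers had a positive value (median 0.61, from 0.43 without ApcMin replicate 3 to 0.79 without ApcMin replicate 1). DESeq2's Wald test called 2 of them, Ccl21a (log2 fold change 2.10, adjusted p = 2.48e-04) and Mmrn1 (1.05, adjusted p = 0.00744), where it called 1.11% of all genes. Neither was called in edgeR's test (adjusted p = 0.257 for both). Flt4 had the lowest value of that list, 0.35 (SE 0.28).

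Of 8 leukocyte markers, 7 had a positive log2 fold change (median 0.52), from -0.26 for Cd3e to 1.03 for Adgre1, and their summed level was between 64.1 and 77.1 CPM in Apc1322T and between 90.9 and 144 CPM in ApcMin libraries. Enteric glia markers had 1 positive and 3 negative values among 4 tested genes (median -0.25, but 0.02 without Apc1322T replicate 1 and 0.05 without Apc1322T replicate 2, with -0.93 for Foxd3), with Sox10 at between 2 and 14 counts, and the 303 CPM that this list summed to at most came mainly from Erbb3, which epithelial cells also express. Mesothelium markers had 2 positive and 1 negative value among 3 tested genes (median 0.07, and from -0.58 without ApcMin replicate 2 to 0.70 without Apc1322T replicate 1, with single values from -0.86 for Upk1b to 1.59 for Msln), and Wt1 had between 3 and 27 counts.

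In contrast to the stromal lists, all 7 gut epithelium markers had a negative log2 fold change (median -0.42), from -0.81 for Krt20 to -0.08 for Krt18. Of them 4 did not overlap, all lower in ApcMin adenomas. Among all genes, 21.0% did not overlap in either direction and 11.0% did so on the ApcMin side. Squamous epithelium markers had 4 positive values and 1 negative one among 5 tested genes (median 2.51, from -0.81 for Dsg3 to 3.41 for Krt6a), with Krt14 at 2.51 (SE 0.18, edgeR adjusted p = 0.0485). DESeq2's Wald test called 3 of the 5, Krt14 (adjusted p = 7.8e-30), Krt6a (1.4e-11) and Krt4 (4.77e-09), where it called 1.11% of all genes. The summed level of the squamous markers was between 8.75 and 10.9 CPM in Apc1322T and between 37.5 and 49.9 CPM in ApcMin libraries, and Krt5 and Trp63 were at most at 14 counts. The part of any of these cell types in the values of the niche genes was not tested.

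**Figure D5:**
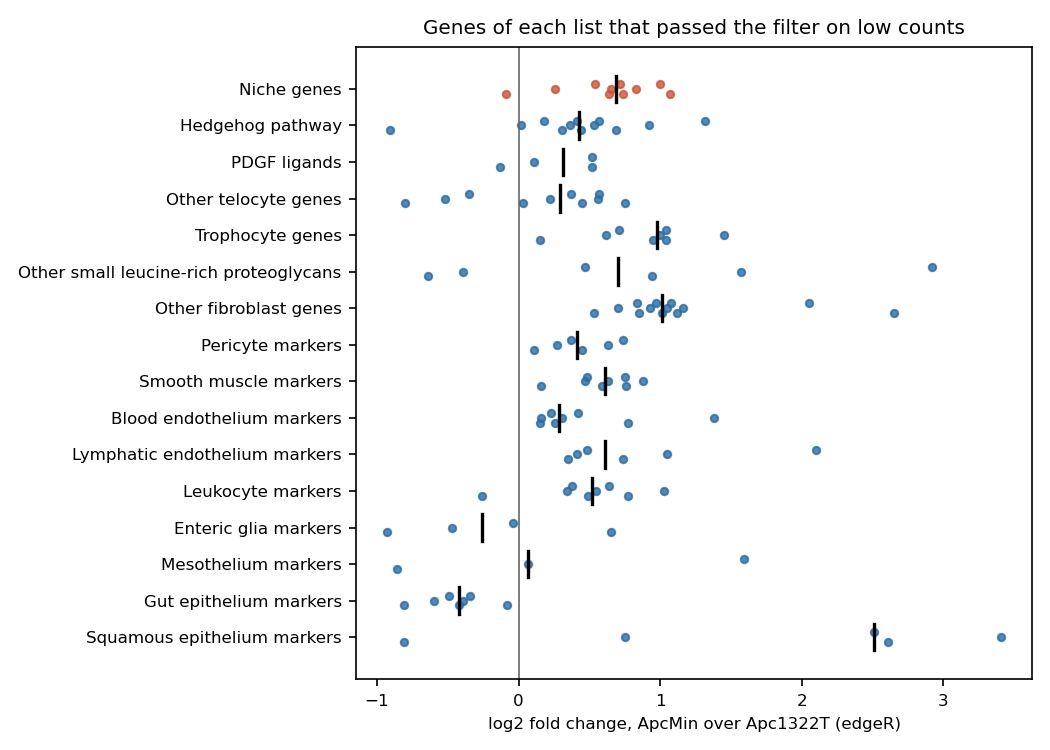
Log2 fold change of ApcMin over Apc1322T adenomas (horizontal axis) for each tested gene of the niche genes and of each list (vertical axis), with a point per gene and a bar at the median of the list. The niche genes have a median of 0.68, the other fibroblast genes of 1.01 (0.30 without ApcMin replicate 1) and the gut epithelium markers of -0.42.

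The genes most similar to the niche genes over the 6 libraries were sought by the Pearson correlation with their mean profile, as a description. The 5 closest were Lrrc8c (0.997), Mab21l2 (0.996), C1qtnf5 (0.995), Cxcl12 (0.995) and Tmem100 (0.994). Cxcl12, which encodes a chemokine of stromal cells, had log2 CPM of 3.79, 2.82 and 3.19 in Apc1322T and 4.59, 3.90 and 3.87 in ApcMin adenomas, without overlap, and a log2 fold change of 0.84 (SE 0.31). It was picked for its correlation in these same 6 libraries, so these values are no separate result. Taken singly, the closest gene was Mark1 for Pdgfra (0.999), Nsg1 for Pdgfrb (0.998), Yeats2 for Foxf1 (0.997), Gpr153 for Dcn (0.997) and Pabpc4 for Pdpn (0.998). It was Gm8343 for Foxl1 (0.994), Rbm4b for Gli1 (0.993), Nuak1 for Cd34 (0.992) and Ccnd3 for Cd81 (0.991). Each is the highest of the correlations with all other tested genes over only 6 libraries, which share their differences in depth and stroma.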

How the data were processed

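RNA-seq of excised adenomas was analysed, with 3 libraries from Apc1322T/+ and 3 from ApcMin/+ mice. Per the paper's methods, a strand-specific kit was used, all libraries were sequenced on the same lane, and Salmon quantified the reads against the GRCm38 transcriptome. The authors deposited the resulting estimated counts per gene, without scaling, and 31.1% of them differ from a whole number by more than 0.001. Libraries were assigned to genotypes by their sample labels, which do not say that replicates came from separate mice, so p-values measure only the spread between these libraries, which may be technical.

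The counts were rounded. GENCODE M21 gave symbols, by Ensembl identifier, for 34582 of 34866 genes. Genes were kept with filterByExpr (minimum count 10, minimum total 15), which left 16536 genes, and normalised by TMM. The genotypes were compared across all genes by edgeR 4.0.16 in R 4.3.3 (quasi-likelihood test, robust fit), with Benjamini-Hochberg adjustment and the study's threshold of 0.01. Standard errors (SE) are the log2 fold change divided by the square root of F, and log2 CPM used a prior count of 2. Summed CPM and CPM per kilobase used the library totals without TMM. Positive log2 fold changes stand for higher levels in ApcMin adenomas. Single values were also compared by exact permutation over the 20 assignments of the 6 libraries. DESeq2 1.42.0, limma-voom (limma 3.58.1), other normalizations and filters, each library left out and the replicate number as a block were alternatives. The scripts were tested on simulated data.

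The niche genes and the gene lists were chosen with earlier results of these data known, the lists from general knowledge. Named were all niche genes, the genes with the most positive and most negative log2 fold change of each list, the listed genes past the threshold, a few pathway and marker genes (Shh, Ihh, Ptch1, Hhip, Pdgfa, Grem1, Col3a1, Krt14), and the genes most similar to the niche genes. Genes beyond this rule (Smo, Gas1 and Cdon, list genes called by DESeq2, genes next to niche genes, Epcam, Prox1, Erbb3, and genes with too few counts) were picked with their values in view. Some genes that the rule names are not reported here. The arrays and staining of the study were not analysed here.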

Additional observations from a re-analysis of the deposited data

How the results depend on the processing

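No niche gene passed an adjusted p of 0.01 in edgeR under other normalizations or filters, with limma-voom, with any library left out (0 to 0), or at an adjusted p of 0.05, whereas DESeq2 called 1 (Pdgfra, log2 fold change 0.98). Of the single log2 fold changes of the niche genes under these alternatives, 127 kept their direction and their side of the threshold, and 1 was reversed (Cd34, -0.08 without ApcMin replicate 1, in a range from -0.08 to 0.46). The difference in log2 CPM of Cd34 was likewise -0.08 without that library (range -0.08 to 0.44). The median of the niche genes lay between 0.44 and 0.87 with single libraries left out. The number of genes at an unadjusted p under 0.05, an alternative added after seeing the data, was 3 in edgeR (15.1% of all genes), 5 in DESeq2 (11.5%), 2 with a minimum count of 50 (15.8%, with Gli1 removed) and 1 to 4 with single libraries left out (6.92% to 24.4%). The number without overlap was 3 to 7 with single libraries left out (25.1% to 48.0% of all genes). With the replicate number as a block, 6 niche genes and 12.8% of all genes were at an unadjusted p under 0.05 and 0 niche genes passed the threshold. Over all genes tested, same-numbered libraries did not deviate together (correlations -0.0139, 0.164 and -0.286), and the labels give them only a number in common. For single niche genes the block mattered more. The SE fell from 0.32 to 0.10 for Pdgfrb and from 0.34 to 0.11 for Dcn, but rose from 0.38 to 0.45 for Ackr4.

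Of the differences relative to other fibroblast genes, those of Pdgfra and Gli1 kept their direction with both other references. Pdgfrb, Cd34 and Cd81 kept theirs relative to smooth muscle markers, where the values of the others were 0.27 for Foxl1, 0.07 for Foxf1, 0.11 for Pdpn, 0.08 for Dcn and 0.00 for Ackr4. Relative to gut epithelium markers the reversed values were 0.99 for Pdgfrb, 1.33 for Foxl1, 1.13 for Foxf1, 0.65 for Cd34, 0.35 for Cd81, 1.17 for Pdpn, 1.06 for Ackr4 and 1.14 for Dcn. With single libraries left out they ranged from -0.20 to 0.65 for Pdgfra, -0.45 to 0.65 for Foxl1, -0.61 to 0.29 for Foxf1, -0.35 to 0.77 for Gli1 and -0.95 to 0.21 for Ackr4. The references themselves differed between the genotypes, which alone moves these values, and the cause was not tested. Few counts limit Gli1 and Foxl1 most.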
